A study of Anas platyrhynchos with 12 samples.

Results

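The mitochondrial carrier family SLC25 was described in breast muscle of ducks (Anas platyrhynchos). Its members were taken as the gene models whose symbol, in upper case, begins with SLC25A and a number, which gave 37 of 16433 models under 36 symbols. One symbol, SLC25A33, was carried by 2 models. The model with gene number 101803107 is called SLC25A33 here, and the model with gene number 101792311, which the deposited description names as similar to it, is called SLC25A33-like. The samples came from an F2 population, raised under the same conditions and sampled at 42 days of age. The 6 HB libraries came from birds whose breast muscle ratio was high and the 6 LB libraries from birds whose ratio was low, and no treatment, sex, litter or batch is given for either group. The series asked which genes are related to this growth trait.

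SLC25 proteins sit in the inner membrane of mitochondria, with few exceptions, and each moves a small set of metabolites between the cytosol and the matrix. In muscle the ADP/ATP carriers export the ATP made by oxidative phosphorylation in exchange for ADP, and the phosphate carrier brings in the phosphate that ATP synthase needs. Other members carry fatty acids bound to carnitine, amino acids, di- and tricarboxylates, nucleotides, cofactors and iron. The uncoupling proteins belong to the same family.

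Total counts lay between 33124019 and 42503751 in HB libraries and between 24090771 and 39718065 in LB libraries. The summed level of fast fibre markers, given as FPKM (counts scaled to transcript length and library total), was 31831 to 36819 in HB and 29074 to 34742 in LB, so skeletal muscle RNA was abundant in every library. Adipocyte markers summed to 275 to 565 FPKM across HB libraries and 318 to 413 FPKM across LB libraries. Erythrocyte markers summed to 2599 to 7288 FPKM across HB libraries and 3509 to 5640 FPKM across LB libraries. Endothelial markers summed to 273 to 541 FPKM across HB libraries and 422 to 574 FPKM across LB libraries, macrophage markers to 332 to 531 FPKM across HB libraries and 330.3 to 637 FPKM across LB libraries, and Schwann cell markers to 10.1 to 16.05 FPKM across HB libraries and 12.4 to 34.7 FPKM across LB libraries. The macrophage gene CD163 had 27 models, of which 4 held 0 counts in all libraries and none exceeded 0.53 FPKM in any. In such tissue, fewer cells of a type and less RNA per cell cannot be told apart. The part of these cell types in the results below was not tested. HB-1, HB-4 and LB-1 set the extremes of many carriers in FPKM. HB-4 also stood apart in its marker genes. The slow troponin gene TNNC1 had 5.56 FPKM in HB-4, against 1341 to 2468 FPKM in the other HB libraries and 1186 to 2219 FPKM in LB libraries. Of 7 models of the myosin heavy chain MYH1B, 4 had 32.4 to 67.1 FPKM in HB-4 and at most 3.80 FPKM in any other library. The most abundant MYH1B model, 101796474, was lowest in HB-4, with 972 FPKM. The remaining models were high in LB-1 as well. Model 101802071 had 257 FPKM in HB-4, 220 FPKM in LB-1 and at most 28.3 FPKM elsewhere. Model 110353953 had 793 FPKM in HB-4, 439 FPKM in LB-1 and at most 212 FPKM elsewhere.

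No carrier passed the threshold between HB and LB. The edgeR quasi-likelihood test was fitted over 12577 genes, with Benjamini-Hochberg adjusted p-values and a threshold of 0.05, and it called 0% of all genes and 0 of the 35 carriers that passed the filter on low counts. DESeq2 called 1 of 14981 genes (0.00668%) and 0 carriers. Unadjusted p-values under 0.05 in edgeR were found for 3 carriers, SLC25A15, SLC25A34 and SLC25A4, all with higher levels in HB. Of all genes 4.6% had one, 2.34% with a higher and 2.27% with a lower level in HB. The log2 differences, written as HB minus LB, were positive for 28 of the 35 carriers (24 to 29 under the alternatives tried), where 49.9% of all genes had a positive one. Without HB-1, HB-4 or LB-1 in turn, 27, 27 and 26 carriers had a positive difference. Among removals of 1 library the count was lowest without HB-3, at 24, and highest without LB-2, at 29. Without HB-2 it was 25. Carriers above their own mean over the 12 libraries (log2 counts scaled to library size) numbered 27 of 35 for HB-3. They numbered 23 for HB-1, 20 for HB-2, 16 for HB-6, 12 for HB-4 and 11 for HB-5, and 11 to 20 across LB libraries. With all libraries the median difference of the carriers was 0.09, against -0.00 for all genes tested, and the median absolute difference was 0.13 for carriers and 0.13 for all genes. The HB and LB ranges overlapped for each of the 35 carriers, and did not overlap for 0.159% of all genes. For 28 carriers (80.0%) the 95% interval of the difference lay within a 2-fold change either way, as it did for 79.1% of all genes. For the other 7 carriers a 2-fold difference lay inside the interval.

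**Figure D1:**
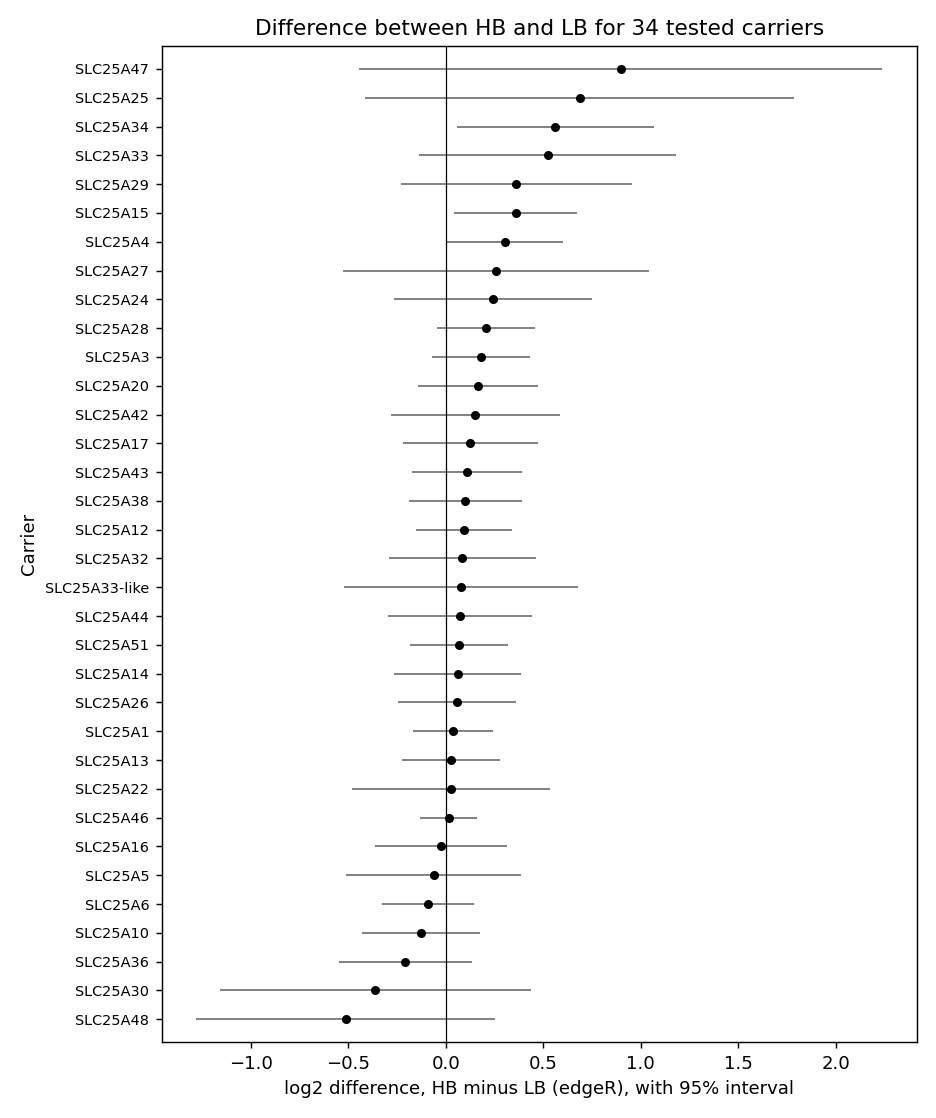
Log2 difference between HB and LB libraries (points, HB minus LB, edgeR) with its 95% interval (lines) for 34 of the 35 tested carriers, ordered from the highest to the lowest. Intervals of SLC25A34, SLC25A15 and SLC25A4 lie above 0 before adjustment over all genes, and the widest belongs to SLC25A47.

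One carrier stood far above the rest in level. SLC25A4 averaged 1021 FPKM over the 12 libraries, rank 58 of all gene models. It held 56.7% of the summed FPKM of all carriers on average, from 51.7% to 63.0%. SLC25A3 followed with 173 FPKM, SLC25A6 with 117 FPKM, SLC25A12 with 85.1 FPKM, SLC25A28 with 77.4 FPKM, SLC25A20 with 56.8 FPKM and SLC25A5 with 47.0 FPKM. The 5 most abundant carriers together took 79.6% to 84.8% of the sum. Mean levels of 10 to 50 FPKM were found for 6 carriers and of 1 to 10 FPKM for 21, and 4 averaged under 1 FPKM. The summed level of all carriers came to 1902 ± 222 FPKM across HB libraries and 1679 ± 144 FPKM across LB libraries (SD, n = 6 each), and the HB range of 1668 to 2286 FPKM overlapped with the LB range of 1442 to 1889 FPKM. The coefficient of variation over the 12 libraries was lowest for SLC25A46 (7.54%), SLC25A6 (11.8%), SLC25A1 (12.9%), SLC25A26 (14.0%) and SLC25A28 (14.7%). Among carriers with a mean of at least 1 FPKM it was highest for SLC25A25 (86.9%), SLC25A27 (52.8%), SLC25A33 (46.5%), SLC25A30 (42.1%) and SLC25A29 (41.1%).

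**Figure D2:**
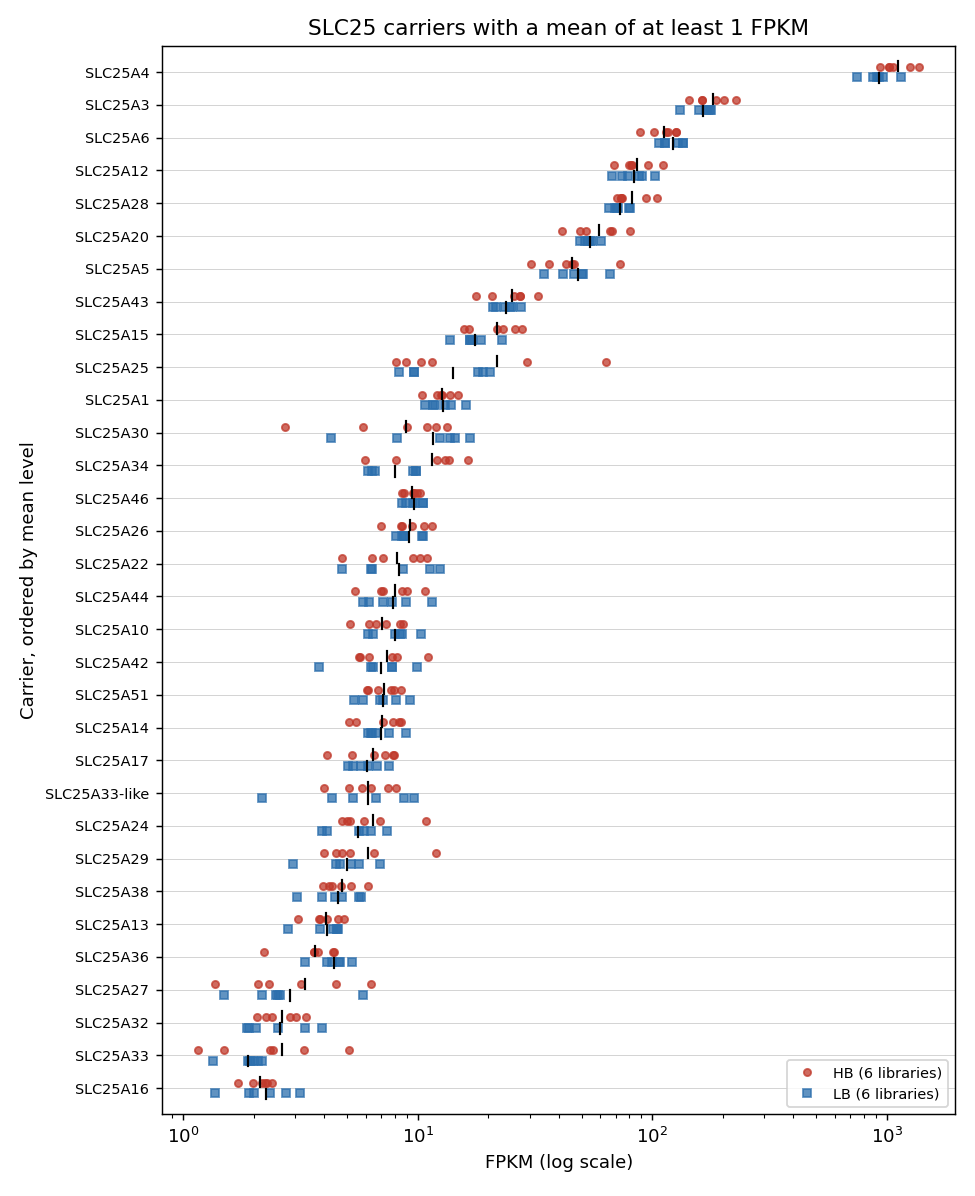
FPKM (log axis) of 32 of the 33 carriers with a mean of at least 1 FPKM, ordered by mean level, in 6 HB libraries (circles, upper row of each carrier) and 6 LB libraries (squares, lower row). Black ticks mark group means. SLC25A4 averages 1021 FPKM, and SLC25A25 and SLC25A30 show the widest scatter among carriers above 10 FPKM.

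Of the 3 ADP/ATP carriers, SLC25A4 had a positive difference and the others had differences close to 0. SLC25A4, the isoform of heart and skeletal muscle in mammals, had 1378, 1020, 1067, 1257, 1020 and 938 FPKM in HB-1 to HB-6, and 745, 930, 965, 1148, 905 and 877 FPKM in LB-1 to LB-6. All 6 HB libraries lay above the LB mean of 928 FPKM, and 2 of them lay above the highest LB library. Its log2 difference was 0.30 ± 0.14 (SE, 95% interval 0.01 to 0.60), and the adjusted p in edgeR was 0.977. Without HB-1 the difference was 0.24, and without LB-1 it was 0.28. SLC25A6, an isoform found in many tissues, had 88.7, 115 and 126 FPKM as the lowest, median and highest HB value and 107, 122 and 135 FPKM across LB libraries, with a log2 difference of -0.09 ± 0.11, which was -0.03 without HB-4 and -0.02 without LB-1. SLC25A5, the isoform of proliferating cells in mammals, had 30.4, 44.3 and 72.9 FPKM across HB libraries and 34.5, 48.3 and 65.8 FPKM across LB libraries, with a log2 difference of -0.06 ± 0.21, which was 0.10 without LB-1 and -0.22 without HB-6. The HB and LB ranges of both isoforms overlapped. SLC25A4 made up 87.4 ± 2.90% of the 3 isoforms in HB and 84.2 ± 3.20% across LB libraries (SD, n = 6 each). SLC25A6 made up 8.97 ± 1.79% across HB libraries and 11.3 ± 2.06% across LB libraries, and SLC25A5 made up 3.66 ± 1.41% across HB libraries and 4.46 ± 1.31% across LB libraries. The lowest share of SLC25A4 was 78.8% in LB-1, where SLC25A6 reached 14.3% and SLC25A5 reached 6.96%. The highest was 90.3% in HB-4.

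**Figure D3:**
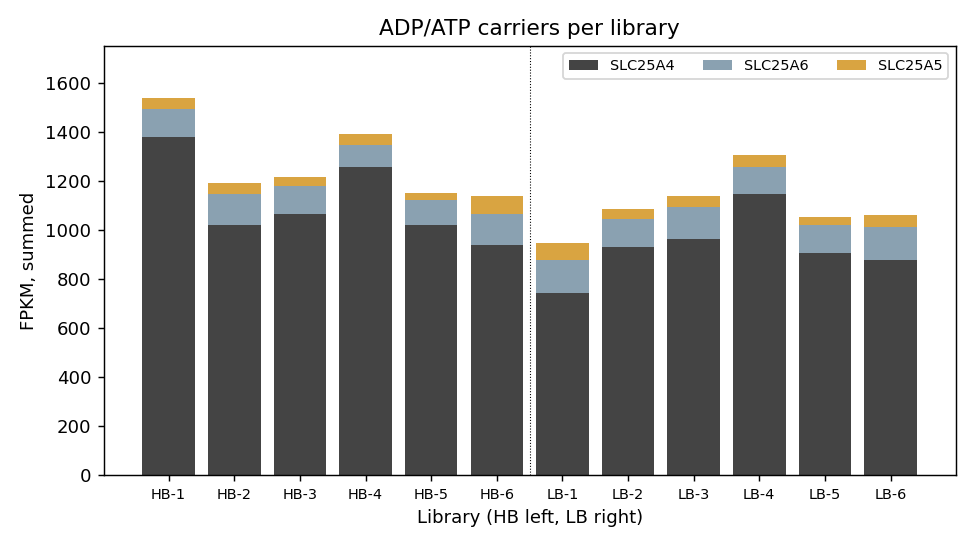
Summed FPKM of the ADP/ATP carriers SLC25A4, SLC25A6 and SLC25A5 in each library, HB left and LB right of the dotted line. SLC25A4 takes 78.8% to 90.3% of each bar, and the sum runs from 946 FPKM in LB-1 to 1537 FPKM in HB-1.

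The phosphate carrier was the second most abundant member. SLC25A3 had 143, 175 and 228 FPKM as the lowest, median and highest HB value and 131, 172 and 178 FPKM across LB libraries. The 3 highest libraries were HB-1, HB-2 and HB-3, and the other 3 HB libraries lay inside the LB range. Its log2 difference was 0.18 ± 0.12 (SE, 95% interval -0.07 to 0.43), and 0.11 without HB-1. The ratio of SLC25A4 to SLC25A3, both per length, came to 6.23 ± 1.00 in HB and 5.65 ± 0.46 in LB (SD, n = 6 each), with HB-4 and HB-5 at the top (7.72 and 7.13).

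The calcium-regulated carriers of ATP-Mg and phosphate held the most variable abundant member. SLC25A25, which exchanges ATP-Mg for phosphate, had 8.07, 29.4, 8.90, 63.3, 11.5 and 10.3 FPKM in HB-1 to HB-6, and 8.34, 9.66, 18.0, 20.4, 9.65 and 19.0 FPKM in LB-1 to LB-6. HB-4 and HB-2 lay above every LB library, while the other 4 HB libraries lay below the 3 higher LB libraries. Its log2 difference of 0.69 ± 0.51 became -0.02 without HB-4 and 0.86 without HB-1. SLC25A24, a relative with the same kind of substrate, had 4.76, 5.52 and 10.8 FPKM across HB libraries and 3.91, 5.77 and 7.41 FPKM across LB libraries, again with HB-4 highest. Its log2 difference was 0.24 ± 0.23, and 0.02 without HB-4. The ratio of SLC25A25 to SLC25A24 ran from 1.49 to 5.84 in HB and from 1.12 to 4.96 in LB.

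The pyrimidine nucleotide carriers had differences of either sign. SLC25A33, which imports pyrimidine nucleotides for mitochondrial nucleic acid synthesis, had 1.16, 2.39 and 5.12 FPKM as the lowest, median and highest HB value and 1.34, 1.96 and 2.17 FPKM across LB libraries. Of the HB libraries, 4 exceeded the highest LB value and the other 2 lay near or under the lowest. The log2 difference was 0.52 ± 0.30, and it was 0.21 without HB-4. The SLC25A33-like model had 4.01, 6.08 and 8.07 FPKM across HB libraries and 2.18, 5.95 and 9.61 FPKM across LB libraries, with a log2 difference of 0.08 ± 0.28, which was 0.01 without HB-4 and -0.08 without LB-1. Reads of the 2 models may be split between them, so their ratio of 1.22 to 5.03 across libraries is uncertain. SLC25A36, the second pyrimidine nucleotide carrier, had 2.21, 3.69 and 4.42 FPKM across HB libraries and 3.32, 4.48 and 5.25 FPKM across LB libraries. Of the 6 HB libraries, 5 lay under its LB mean of 4.39 FPKM, HB-6 lowest. Its log2 difference was -0.21 ± 0.16 (95% interval -0.55 to 0.13), and -0.09 without HB-6.

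Of the carriers of acylcarnitine and basic amino acids, 4 of 5 had positive differences. SLC25A20, which brings acylcarnitines into the matrix for fatty acid oxidation, had 80.2, 65.9, 67.5, 41.1, 49.4 and 52.2 FPKM in HB-1 to HB-6, and 54.4, 53.3, 49.2, 55.7, 60.8 and 51.9 FPKM in LB-1 to LB-6. The HB libraries spread to both sides of the narrow LB range, 3 above it and HB-4 clearly below it. Its log2 difference was 0.16 ± 0.14, with 0.06 without HB-1 and 0.25 without HB-4. SLC25A15, the ornithine carrier of the urea cycle in mammals, had the smallest unadjusted p of all carriers (0.0286 in edgeR, adjusted p 0.977). It had 15.8, 22.5 and 28.0 FPKM across HB libraries and 13.7, 16.9 and 22.9 FPKM across LB libraries, with a log2 difference of 0.36 ± 0.15 (95% interval 0.04 to 0.67). Above the highest LB library lay 3 of 6 HB libraries, and HB-5 and HB-6 lay under the LB mean. Leaving out single libraries moved the log2 difference of SLC25A15 from 0.28 without HB-3 to 0.445 without HB-6. Without HB-3 and HB-4 together it was 0.23. SLC25A29, a carrier of basic amino acids, had 12.02 FPKM in HB-4, while the other HB libraries held 4.0 to 6.54 FPKM and the LB libraries 2.94 to 6.90 FPKM. Its log2 difference of 0.36 ± 0.27 was 0.05 without HB-4.

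SLC25A47 and SLC25A48 were near the limit of detection. SLC25A47, a liver carrier in mammals, held 3 to 75 counts per library, with 0.38 FPKM in HB-4 and at most 0.15 FPKM elsewhere. Its log2 difference of 0.90 ± 0.62 was 0.18 without HB-4. SLC25A48, a carrier linked to carnitine and choline in mammals, held 12 to 105 counts. It had 0.23 to 0.41 FPKM across HB libraries and 0.12 to 0.98 FPKM across LB libraries, with a log2 difference of -0.51 ± 0.35, which was -0.23 without LB-6.

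The members related to the uncoupling proteins varied widely between libraries. SLC25A30, first described in kidney, had 13.3, 8.97, 10.9, 2.71, 5.85 and 11.98 FPKM in HB-1 to HB-6, and 14.4, 8.20, 12.5, 13.8, 4.26 and 16.7 FPKM in LB-1 to LB-6. The lowest HB value was in HB-4 and the lowest LB value in LB-5, and each lay far under most of its group. The log2 difference was -0.36 ± 0.37, with -0.17 without HB-4, -0.54 without LB-5 and -0.03 in a voom fit with sample weights. SLC25A27, also named UCP4 and known from brain, had 1.37, 2.75 and 6.36 FPKM across HB libraries and 1.5, 2.52 and 5.85 FPKM across LB libraries. Its high values came from HB-1, HB-2 and LB-2, and its log2 difference of 0.26 ± 0.36 was -0.04 without HB-1 and 0.57 without LB-2. SLC25A14, also named UCP5, was steadier with 5.09, 7.5 and 8.50 FPKM across HB libraries and 6.15, 6.51 and 8.90 FPKM across LB libraries, and its log2 difference was 0.06 ± 0.15, with 0.01 without HB-1 and 0.14 without HB-4. UCP3, the muscle uncoupling protein, carries its own symbol and was no member. Its model 101794508 had 7.75 to 95.2 FPKM across HB libraries and 23.7 to 105.2 FPKM across LB libraries, with the highest values in LB-4, HB-4 and HB-6, and a log2 difference of -0.18 ± 0.54, which was -0.63 without HB-4 and 0.26 without LB-4. A second UCP3 model, 113840771, had 10.8 ± 8.63 FPKM across HB libraries and 11.2 ± 10.8 FPKM across LB libraries (SD, n = 6 each), and reads may be split between the models.

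Among carriers of di- and tricarboxylates, SLC25A34 had the largest log2 difference. This poorly characterised member had 13.1, 13.6, 16.4, 12.1, 8.13 and 5.94 FPKM in HB-1 to HB-6, and 6.37, 9.55, 6.14, 9.83, 9.82 and 6.58 FPKM in LB-1 to LB-6. HB-1 to HB-4 lay above every LB library, HB-5 lay inside the LB range and HB-6 lay under it. The log2 difference was 0.56 ± 0.23 (95% interval 0.06 to 1.07, unadjusted p 0.0314 and adjusted p 0.977 in edgeR). Leaving out single libraries moved it from 0.44 without HB-3 to 0.70 without HB-6. SLC25A1, which exports citrate, had 12.8 ± 1.52 FPKM across HB libraries and 12.9 ± 1.94 FPKM across LB libraries (SD, n = 6 each), with a 95% interval of -0.17 to 0.24 for the log2 difference. SLC25A10, the dicarboxylate carrier, had 7.08 ± 1.35 FPKM across HB libraries and 8.01 ± 1.55 FPKM across LB libraries, with a log2 difference of -0.13 ± 0.14, which was -0.05 without HB-4 and -0.06 without LB-6. SLC25A21, the oxodicarboxylate carrier, was not tested, with 52 counts over the 12 libraries. It held 0 counts in 3 HB and 2 LB libraries, which allows up to 0.0786 to 0.123 FPKM there, and reached 0.45 FPKM in HB-2 and 0.51 FPKM in LB-6.

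The log2 differences of the 5 amino acid carriers lay between 0.03 and 0.10, and those of SLC25A13 and SLC25A22 were negative under library totals alone. SLC25A12, the aspartate/glutamate carrier of muscle and brain in mammals and part of the malate-aspartate shuttle, had 69.1, 81.7 and 111 FPKM as the lowest, median and highest HB value and 67.4, 83.3 and 103 FPKM across LB libraries. The highest values were those of HB-1 and LB-5, and the log2 difference was 0.09 ± 0.11, with 0.01 without HB-1. Its relative SLC25A13, which dominates in mammalian liver, had 4.05 ± 0.63 FPKM across HB libraries and 4.10 ± 0.69 FPKM across LB libraries (SD, n = 6 each). Per length, SLC25A12 was 21.6 ± 4.0 times SLC25A13 in HB and 20.7 ± 2.87 times across LB libraries. The glutamate carrier SLC25A22 had 8.20 ± 2.46 FPKM across HB libraries and 8.30 ± 3.04 FPKM across LB libraries. SLC25A44, a carrier of branched-chain amino acids, had 7.98 ± 1.87 FPKM across HB libraries and 7.89 ± 2.07 FPKM across LB libraries. SLC25A38, a glycine carrier of haem synthesis, had 4.75 ± 0.81 FPKM across HB libraries and 4.59 ± 1.01 FPKM across LB libraries.

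The iron carrier SLC25A28 (mitoferrin 2) was among the 5 most abundant members. It had 105, 73.8, 94.1, 70.7, 74.3 and 73.4 FPKM in HB-1 to HB-6, and 69.5, 80.3, 71.6, 70.9, 79.7 and 65.7 FPKM in LB-1 to LB-6. Only HB-1 and HB-3 stood above the LB range, and the other HB libraries lay inside it. The log2 difference was 0.21 ± 0.12 (95% interval -0.04 to 0.46), and 0.13 without HB-1.

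The cofactor carriers described here gave log2 differences between -0.02 and 0.15. SLC25A26, which imports S-adenosylmethionine, had 9.30 ± 1.63 FPKM across HB libraries and 9.22 ± 1.03 FPKM across LB libraries (SD, n = 6 each). SLC25A42, a coenzyme A carrier, had 11.1 FPKM in HB-4, while the other HB libraries held 5.60 to 8.15 FPKM and the LB libraries 3.81 to 9.91 FPKM, and its log2 difference of 0.15 ± 0.20 was -0.01 without HB-4. The NAD carrier SLC25A51, the peroxisomal SLC25A17, the folate carrier SLC25A32 and the coenzyme A related SLC25A16 had log2 differences of 0.07, 0.13, 0.09 and -0.02. SLC25A40, a glutathione carrier in mammals, was not tested. It held 3 counts in LB-5 and 0 in the other 11 libraries, which allows up to 0.0258 to 0.0454 FPKM in each of them.

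Of the remaining members, SLC25A43 had 25.2 ± 5.32 FPKM across HB libraries and 23.9 ± 2.45 FPKM across LB libraries, with a log2 difference of 0.11 ± 0.13, which was 0.19 without HB-4 and 0.04 without HB-6. SLC25A46, a protein of the outer membrane that shapes mitochondria, was the steadiest of all, with 8.59 to 10.2 FPKM across HB libraries and 8.56 to 10.6 FPKM across LB libraries, and its 95% interval for the log2 difference ran from -0.13 to 0.16. SLC25A46 and SLC25A51 are the 2 members placed on the Z chromosome by the RefSeq gene table of the assembly GCF_047663525.1 (Pekin duck), in which all 37 gene numbers were found, on 19 chromosomes. It gives 36 members the same symbol and leaves SLC25A33-like unnamed; that assembly may not be the one the reads were aligned to. The deposited annotation gave a component term for 31 members, of which 30 were placed in membranes as intrinsic components, 12 in an organelle inner membrane and 1, SLC25A17, in the peroxisomal membrane. Metal ion binding was annotated for 3 members, SLC25A13, SLC25A24 and SLC25A25. A further 15 listed family symbols, among them SLC25A11, SLC25A37 and SLC25A39, are not analysed here.

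Single libraries set the extremes of many carriers in FPKM, which is scaled by library total without TMM. HB-1 was highest for 7 of the 35 tested carriers, among them SLC25A4, SLC25A3, SLC25A12, SLC25A28 and SLC25A20, 5 of the 6 most abundant members. MB, which encodes the oxygen store myoglobin, was also highest in HB-1, with 2579 FPKM there and 278 to 1987 FPKM in HB-2 to HB-6, against 154 to 782 FPKM across LB libraries. HB-1 to HB-4 lay above every LB library for MB, and HB-5 and HB-6 lay inside the LB range. The log2 difference of MB was 1.51 ± 0.56 (unadjusted p 0.0189 and adjusted p 0.977 in edgeR), and 1.19 without HB-1. The slow fibre markers other than MB summed to 2008 FPKM in HB-1, of which TNNC1 gave 1994 FPKM, inside the LB range of 1211 to 2229 FPKM. HB-4 was highest for 6 carriers, SLC25A25, SLC25A42, SLC25A24, SLC25A29, SLC25A33 and SLC25A47, and lowest for 11, among them SLC25A20, SLC25A6, SLC25A30, SLC25A14 and SLC25A27. In HB-4 the slow fibre markers other than MB summed to 20.9 FPKM, against 1360 to 2479 FPKM in the remaining HB libraries and 1211 to 2229 FPKM in LB libraries. This gap is that of TNNC1, and the list did not move as a whole. ATP2A2 was highest of all libraries in HB-4, with 12.2 FPKM. TNNI1 had 2.70 FPKM in HB-4, under the 4.40 to 8.15 FPKM of the remaining HB libraries and inside the LB range of 1.88 to 18.6 FPKM. Most adipocyte markers peaked in HB-4. FABP4 had 196 FPKM there, while the remaining HB libraries held 27.4 to 147 FPKM and the LB libraries 26.6 to 155 FPKM. PLIN1, PPARG, CIDEC and CIDEA also reached their highest level of all libraries in HB-4. ADIPOQ, the most abundant adipocyte marker, did not, at 298 FPKM against a top value of 377 FPKM (HB-6). The adipocyte sum of 554 FPKM in HB-4 was exceeded only by that of HB-6. The endothelial sum of 273 FPKM in HB-4 was the lowest of all libraries, but that of HB-5 was close to it, with 281 FPKM. The next lowest was 395 FPKM in HB-3. VWF of that list was highest in HB-4, with 96.3 FPKM against 33.0 to 47.3 FPKM in the remaining HB libraries and 28.8 to 43.1 FPKM in LB libraries. Regulators of mitochondrial genes, here PPARGC1A, PPARGC1B, NRF1, PPARA and PPARD, summed to 44.0 FPKM in HB-4, while the other HB libraries had sums of 17.0 to 23.4 FPKM and the LB libraries of 17.5 to 22.2 FPKM. PPARD gave 24.7 FPKM of the sum in HB-4. PPARGC1A, PPARGC1B, PPARA and PPARD were each highest in HB-4. NRF1 was not, with 1.95 FPKM there, 1.72 to 2.75 FPKM in the remaining HB libraries and 1.99 to 2.40 FPKM in LB libraries. LB-1 was lowest for 12 carriers, among them SLC25A4, SLC25A3, SLC25A12 and SLC25A15, and highest for SLC25A6. LB-6 was highest for 7 carriers, the most abundant of them SLC25A1 with a mean of 12.8 FPKM. The part of fibre and cell makeup in these levels was not tested.

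**Figure D4:**
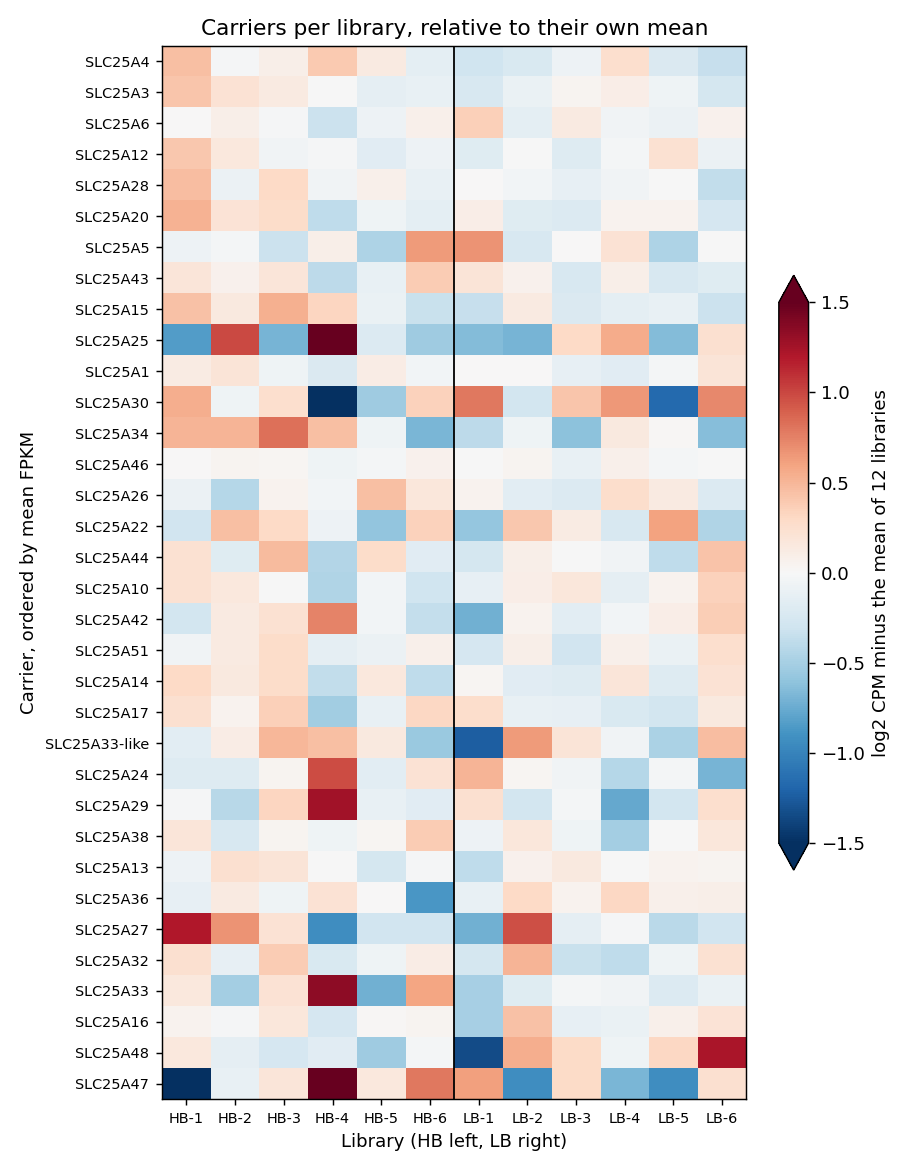
Log2 CPM (counts scaled to library size with TMM) of 34 of the 35 tested carriers, each minus its own mean over the 12 libraries, HB left and LB right of the line, carriers ordered by mean FPKM. Colours end at 1.5 either way. HB-1 is raised for SLC25A4, SLC25A3, SLC25A12, SLC25A28 and SLC25A20, and HB-4 is raised for SLC25A25, SLC25A24, SLC25A29, SLC25A33 and SLC25A47 and lowered for SLC25A30.

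Genes that work beside the carriers gave no call either, with 0 called members in every list in edgeR (0% of all genes). Of the genes of ATP synthase, the mitochondrial porins and the creatine kinase CKMT2, 13 of 16 tested models had positive differences. The median difference of the 16 was 0.08. Under the alternatives tried, 9 to 14 models were positive. Repeated models of VDAC2 and of ATP5F1A are among the 16, and the models with a negative difference all belonged to VDAC2. The smallest p belonged to an ATP5F1A model (113841028), with 177 ± 33.3 FPKM across HB libraries and 133 ± 37.1 FPKM across LB libraries (SD, n = 6 each), followed by ATP5O and ATP5MC3 with log2 differences of 0.20 and 0.21, the second 0.09 without HB-1. The most abundant ATP5F1A model, 101795844, had 1811 ± 376 FPKM across HB libraries and 1827 ± 238 FPKM across LB libraries, with a log2 difference of 0.02 ± 0.17. A further ATP5F1A model, 101801944, had 144 FPKM in HB-3 and 0 FPKM in all others. Reads of ATP5F1A may be split between its models. CKMT2, the creatine kinase that takes ATP from the ADP/ATP carrier, had 892 ± 444 FPKM across HB libraries and 889.8 ± 245 FPKM across LB libraries. Of the carnitine shuttle and fatty acid oxidation genes, 8 of 9 tested models under 8 symbols were positive, with a median of 0.22, and without HB-1 6 were. HADHA is counted by both of its models, 101799809 and MSTRG.4406. SLC22A5, the carnitine transporter of the plasma membrane, had 2.04 ± 0.72 FPKM across HB libraries and 1.38 ± 0.61 FPKM across LB libraries, and its log2 difference of 0.64 ± 0.27 was 0.41 without HB-4. HADHA (model 101799809) and HADHB, the subunits of the trifunctional protein, had log2 differences of 0.26 ± 0.15 and 0.32 ± 0.22. That of HADHA was 0.17 without HB-1, and that of HADHB was 0.15 without HB-4.

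Genes of pyruvate import and of pyruvate dehydrogenase with its regulators were positive in 5 of 6, with a median of 0.21. The negative one was PDK4, a pyruvate dehydrogenase kinase, with a log2 difference of -0.48 ± 0.76. It had 61.3 to 833 FPKM across HB libraries and 92.9 to 793 FPKM across LB libraries. MPC1 and MPC2, which form the mitochondrial pyruvate carrier outside the SLC25 family, had 124 ± 28.3 and 225 ± 46.4 FPKM across HB libraries, and 106 ± 9.53 and 191 ± 19.4 FPKM across LB libraries. Their log2 differences were 0.28 ± 0.14 and 0.27 ± 0.13, and that of PDP1, the phosphatase that activates pyruvate dehydrogenase, was 0.52 ± 0.20. Of the genes of the malate-aspartate and glycerol phosphate shuttles, 5 of 7 tested models were positive, with a median of 0.12, and both GPD1 models are among the 7. GOT1, MDH1 (model 101794999) and MDH2 had log2 differences of 0.28 ± 0.17, 0.26 ± 0.20 and 0.19 ± 0.15. That of GOT1 was 0.16 without HB-4, and those of MDH1 and MDH2 were 0.12 and 0.12 without HB-1. Genes that import carrier proteins into the inner membrane were positive in 4 of 5, with a median of 0.16. Of these, TIMM9, TIMM22 and TIMM13 had 0.40 ± 0.21, 0.16 ± 0.11 and 0.22 ± 0.15, and without HB-1 TIMM22 and TIMM13 had 0.09 and 0.14. The regulators were positive in 5 of 5, with a median of 0.39, and PPARGC1A, PPARGC1B and PPARA had 0.40 ± 0.29, 0.27 ± 0.22 and 0.46 ± 0.41. Without HB-4 only 3 of the 5 regulators were positive, and PPARGC1A, PPARGC1B and PPARA had 0.24, 0.06 and -0.14. Without LB-1 PPARGC1A had 0.23 and PPARGC1B had 0.17. Haem and iron genes were positive in 3 of 5, with a median of 0.05, and ABCB10, ALAS1 and FECH had 0.21 ± 0.10, 0.24 ± 0.25 and -0.05 ± 0.14. Without HB-1 ALAS1 had 0.01 and FECH had 0.05. Genes of mitochondrial pyrimidine use and DNA upkeep were positive in 4 of 7, with a median of 0.00. CMPK2, a mitochondrial nucleotide kinase, had -1.91 ± 0.75 with all libraries and -0.50 without LB-5, and POLG and RRM2B had 0.12 ± 0.11 and 0.24 ± 0.24. Without LB-1 POLG had 0.07, and without HB-2 RRM2B had 0.11.

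Relations between carriers and partner genes were examined for 5 pairs over the 12 libraries, on log2(FPKM + 1), with permutation tests of 100000 resamples adjusted over the 5 pairs. SLC25A4 with SLC25A3 gave a Pearson r of 0.67 (permutation p 0.0173, adjusted p 0.0864) and a Spearman rho of 0.57 (permutation p 0.0552, adjusted p 0.138). The r of this pair was 0.51 within HB and 0.84 within LB. Without HB-1 and LB-1, the libraries farthest from the median of SLC25A4, it was 0.10. Removing them narrows the range of SLC25A4, which can lower r by itself. Whether the relation rests on those libraries was therefore not settled. Without HB-4 it was 0.79, with an adjusted p of 0.0272 in the permutation test. For the pair fixed by the symbols SLC25A33 and SLC25A36, the SLC25A33-like model was used because it had more counts. The model called SLC25A33 was not examined in this pair. SLC25A33-like with SLC25A36 gave r = 0.60 (permutation p 0.0455, adjusted p 0.114) and rho = 0.67 (permutation p 0.0194, adjusted p 0.0968). It was 0.80 within HB and 0.87 within LB, and 0.52 without LB-1 and LB-2. SLC25A20 with CPT2, the enzyme that releases acyl groups from carnitine in the matrix, gave r = 0.52 and rho = 0.45 (permutation p 0.0854 and 0.147, adjusted p 0.142 and 0.244). It was 0.83 within HB and 0.07 within LB, and 0.42 without HB-1 and HB-4. SLC25A4 with CKMT2 and SLC25A12 with MB gave r = 0.18 and 0.17 and rho = 0.11 and 0.03 (permutation p 0.581 and 0.600 for r, 0.734 and 0.920 for rho, adjusted p 0.600 for both r and 0.917 and 0.920 for rho). Within HB and within LB they were 0.60 and -0.31 for SLC25A4 with CKMT2, and 0.63 and -0.63 for SLC25A12 with MB. Without the 2 farthest libraries they were 0.39 and 0.05. With all 12 libraries no pair passed 0.05 after adjustment.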

How the data were processed

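RNA of 12 breast muscle samples, 6 HB and 6 LB, was extracted with Trizol and made into TruSeq libraries, per the labels' protocols. Tools named in the submitters' processing notes are fastp 0.18.0, HISAT2, StringTie 1.3.1 and DESeq2. Not given in the sources used here are the genome build, the annotation and the counting step. Whole-number counts per gene model, not normalized, were deposited. Deposited beside them, per the file headers, are the authors' group mean FPKM, the log2 ratio of these means, a p-value and an adjusted p-value. In the authors' deposited values 1 model of all 16433, and no carrier, has an adjusted p under 0.05. A further 12 columns with values per library were not used. Library numbers serve as names, since no column name could be tied to a sample. Separate birds are not stated for the samples, and p-values reflect only the spread among them, which may be technical.

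FPKM per library was computed from counts, library totals and the length that the deposited mean FPKM imply. The lengths implied by the HB and LB means differed by at most 0.464% over 10188 models. Of all models, 1487 had no symbol. No 2 libraries held identical counts (0 pairs), and libraries of 1 group differed by a chi-square of at least 66.8 per degree of freedom.

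Genes were tested with edgeR 4.0.16 in R 4.3.3 (TMM scaling, filterByExpr, quasi-likelihood test, Benjamini-Hochberg adjustment over 12577 genes). A standard error is the absolute log2 difference divided by the square root of F. The limit at 0 counts is 3 counts and covers counting error only. On simulated counts for HB and LB with 12577 genes, 200 of them changed, the test recovered 0.5% of genes changed 1.5-fold, 55.5% changed 2-fold and 89.0% changed 4-fold. Alternatives used DESeq2 1.42.0, limma 3.58.1 on log2 FPKM or voom with sample weights, other scalings and filters, summed models, and the removal of libraries.

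The members and lists were chosen with earlier results of these data known. Named by rule were 10 fixed carriers, the 10 most abundant, the 8 with the smallest p, the 5 most and 5 least variable above 1 FPKM, the untested ones, the genes of the fixed pairs, and up to 3 genes per partner list by smallest p. The fixed pair of SLC25A37 and ALAS2 is not analysed here. The values of 1 carrier are not reported here, though it is in the counts over all carriers.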

Additional observations from a re-analysis of the deposited data

Results flagged for a closer look

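In 132 groups of 6 libraries (carriers and named partner genes), 15 held a library whose gap to its nearest neighbour took more of the group's range than Dixon's 95% critical value allows. For independent, normally distributed values about 1 in 20, or 6.6, would be flagged. The groups here share the same libraries and some hold few counts, so the 15 cannot be weighed against 6.6. HB-4 was such a library in 5 of them. It held 10.8 FPKM of SLC25A24 against 4.76 to 6.90 in the other HB libraries, 12.02 FPKM of SLC25A29 against 4.0 to 6.54, 3.46 FPKM of PPARA against 0.63 to 1.09, 5.36 FPKM of PPARGC1B against 2.27 to 3.10, and 3.45 FPKM of SLC22A5 against 1.57 to 2.11. HB-6 held 72.9 FPKM of SLC25A5, above 30.4 to 46.2 FPKM in the other HB libraries, and 2.21 FPKM of SLC25A36, under 3.61 to 4.42 FPKM. HB-2 held 0.45 FPKM of SLC25A21, where the other HB libraries held at most 0.14 FPKM.

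In LB, LB-2 held 5.85 FPKM of SLC25A27 against 1.5 to 2.60 in the other LB libraries, and LB-1 held 1.34 FPKM of SLC25A33 against 1.90 to 2.17. LB-6 held 0.51 FPKM of SLC25A21 against at most 0.12. LB-5 held 0.03 FPKM of SLC25A40, where the other LB libraries held 0 counts, and 12.2 FPKM of CMPK2 against 0.43 to 2.42. Counts in a single library of a group always give a flag, as for SLC25A40 with its 3 counts. LB-4 held 105.2 FPKM of UCP3 model 101794508 against 23.7 to 40.0, and 32.6 FPKM of UCP3 model 113840771 against 2.82 to 9.52.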

How the results depend on the processing

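Under 23 alternatives 0 carriers and 0 partner genes were called, and the smallest adjusted p of a carrier was 0.725. Among all genes 22 alternatives called 0, and DESeq2 called 1. Between 24 and 29 carriers had positive differences, with medians of 0.05 to 0.14, and the median of all genes stayed between -0.047 and 0.010. The sign held under all alternatives for 21 of 35 carriers. Without HB-3 and HB-4 together the log2 differences turned to -0.004 for SLC25A13, 0.003 for SLC25A16, -0.002 for SLC25A24, -0.066 for SLC25A29, -0.129 for SLC25A33-like, -0.084 for SLC25A42, 0.003 for SLC25A5, -0.082 for CKMT2 and -0.116 for PPARA. With limma at a pseudocount of 1, at 0.1 and with library totals alone they were -0.007, -0.008 and -0.012 for SLC25A1, -0.011, -0.013 and -0.018 for SLC25A13, and -0.024, -0.026 and -0.027 for SLC25A46. Both limma fits gave -0.109 for CKMT2. Voom with sample weights gave -0.182 for CKMT2 and -0.013 for SLC25A22, and library totals alone gave -0.02 for SLC25A22. Leaving out 1 library at a time moved the log2 differences from -0.001 to 0.087 for SLC25A1, -0.035 to 0.080 for SLC25A13, -0.109 to 0.081 for SLC25A16, -0.073 to 0.169 for SLC25A22, -0.023 to 0.859 for SLC25A25, -0.041 to 0.134 for SLC25A26, -0.037 to 0.574 for SLC25A27, -0.081 to 0.239 for SLC25A33-like, -0.007 to 0.250 for SLC25A42, -0.027 to 0.182 for SLC25A44, -0.006 to 0.034 for SLC25A46 and -0.224 to 0.095 for SLC25A5. For partner genes these ranges were -0.227 to 0.217 for CKMT2, -0.019 to 0.155 for CPT2, -0.126 to 0.051 for FECH, -0.142 to 0.605 for PPARA, -0.633 to 0.259 for UCP3 model 101794508 and -0.399 to 0.670 for UCP3 model 113840771. Without HB-4 the r of SLC25A4 with SLC25A3 was 0.794 (permutation test, adjusted p 0.0272) and that of SLC25A4 with CKMT2 was -0.047. The causes were not tested. No paired analysis was possible because the labels state no pairing between HB and LB samples, and the column numbers tie no library to a sample.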
